A study of Mus musculus with 6 samples.

Results

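Expression of 9 genes that mark GABAergic interneurons, the inhibitory local-circuit neurons of the brain, was examined in cultured mouse hippocampal neurons given apolipoprotein E (apoE) particles, the lipid carriers that astrocytes and microglia release. They were taken by gene symbol and comprise 6 transcription factor genes (Dlx1, Dlx2, Dlx5, Dlx6, Lhx6 and Npas1) and 3 genes of calcium-binding proteins (Pvalb, Calb1 and Calb2). All 9 had a value other than 0 in every library, among 26562 symbols with values. All 9 also passed the filter on low values (10 or more on the linear scale in 3 or more libraries), which left 15055 genes to test. The cultures were primary neurons from the hippocampus of wild-type (WT) mice, kept in Neurobasal with B27 and GlutaMAX and treated at day 10 for 24 h with 6 µg/mL of particles. One group of 3 samples received astrocytic apoE particles and the other group of 3 received microglial apoE particles. The labels give neither strain nor age of the animals. Cultures without particles were not analysed here, so every direction is microglial relative to astrocytic apoE. No label states whether replicate samples are separate cultures, so a p-value reflects how far these samples differ, which may be technical.

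Interneurons of the hippocampus are born in the ganglionic eminences of the ventral forebrain and migrate to their target. The DLX homeobox factors switch on the GABAergic programme in their precursors, and the LIM homeobox factor LHX6 directs the lineage of the medial eminence that gives rise to the somatostatin and parvalbumin classes. Parvalbumin, calbindin and calretinin are EF-hand proteins that buffer calcium and divide mature interneurons into classes. Calbindin and calretinin are not restricted to interneurons: calbindin is also made by dentate granule and some pyramidal neurons, and calretinin by mossy cells and Cajal-Retzius cells.

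The deposited values are log2 values on a scale common to the libraries, with the form of a regularized logarithm, which shrinks both the differences and the spread of weakly expressed genes. The number of reads behind them is unknown. The summed linear value (2 to the power of the deposited value) was 18060473 to 18337624 per library, and the median difference between libraries of a group was 0.0256 to 0.037 on the log2 scale. Astrocytic replicate 3 lay farthest from its group (0.0344 and 0.037, against 0.0256 between the other two) and nearest to a microglial library (0.0425). Without it 4541 genes were called in limma, against 3742 with all 6 libraries and 2556 to 3258 without any other library, and 5 members were still called higher and 1 lower. The 8 general neuronal markers were present in every library, with Map2, the dendritic microtubule protein, at a mean of 14.63 with astrocytic and 14.53 with microglial apoE. Astrocyte transcripts were also abundant, with Gfap at a mean of 13.00 and 11.92. These are bulk samples, in which fewer cells of a type and less RNA per cell cannot be told apart.

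Among the 9 genes, all 4 Dlx genes and Lhx6 rose with microglial apoE, by 11.0% to 14.0%, and Pvalb fell by 13.1%. Npas1, Calb1 and Calb2 did not pass the test, with estimated differences of 1.02% to 2.19%. A gene was called at a Benjamini-Hochberg adjusted p under 0.05 in limma over all genes tested. Thus 5 of 9 members were called higher, against 13.0% of all genes tested, and 1 of 9 lower, against 11.8% (24.9% in either direction). The same 6 members had groups that did not overlap, 5 of them with microglial apoE above, as in 20.1% of all genes tested, and 1 with it below, as in 18.8% (38.9% in either direction). The median log2 fold change of the members was 0.15, and that of all genes tested was -0.0006. These 9 genes were chosen with earlier results of these data known, so the counts describe them and carry no test of the list.

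**Figure D1:**
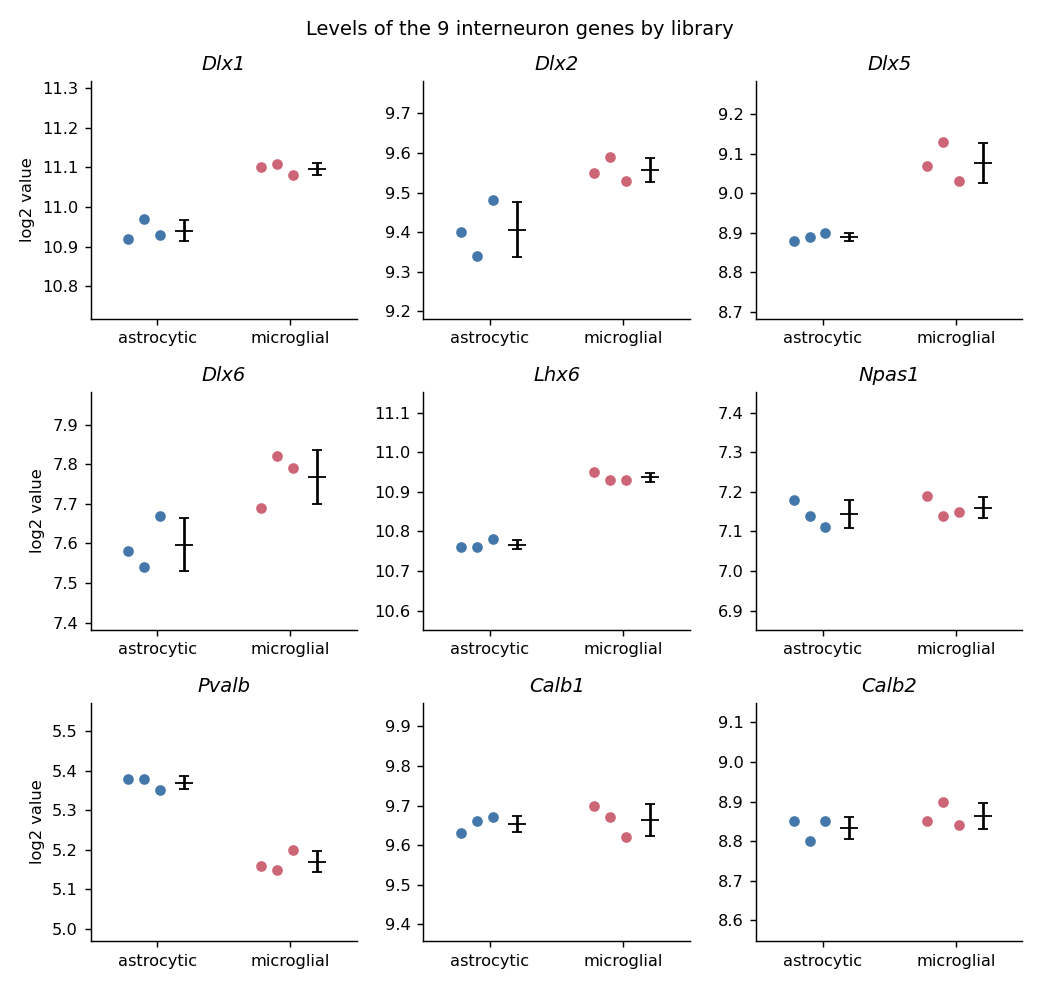
Log2 value of each of the 9 genes in the 3 libraries with astrocytic apoE (blue) and the 3 with microglial apoE (red), with the group mean and SD in black at the right of the points. Every vertical axis spans the same log2 distance. The groups are separate for Dlx1, Dlx2, Dlx5, Dlx6, Lhx6 and Pvalb and overlap for Npas1, Calb1 and Calb2.

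Dlx1 and Dlx2 lie next to each other on chromosome 2 (GRCm38, GENCODE M21), facing each other with 9426 bases between them. Dlx1 spans 71528113 to 71533981 on the plus strand and Dlx2 spans 71543408 to 71546754 on the minus strand. The protein of each binds DNA through a homeodomain and drives the differentiation and migration of interneuron precursors. Dlx1 stood at 10.92, 10.97 and 10.93 in the 3 astrocytic libraries and at 11.10, 11.11 and 11.08 in the 3 microglial libraries. Every microglial library was above every astrocytic one. Dlx1 rose by 0.155 ± 0.027 (log2 fold change, SE), a 1.11-fold difference (limma adjusted p = 0.00011). Dlx2 stood at 9.40, 9.34 and 9.48 with astrocytic and at 9.55, 9.59 and 9.53 with microglial apoE. The groups were again separate, by 0.049 at the nearest libraries, and the astrocytic libraries were spread more widely (SD 0.07) than those of Dlx1 (SD 0.02). Dlx2 rose by 0.151 ± 0.034 (SE), 1.11-fold (limma adjusted p = 0.0017).

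Dlx5 and Dlx6 form the other cluster, on chromosome 6, with 9236 bases between them. Dlx5 spans 6877805 to 6882085 on the minus strand and Dlx6 spans 6863334 to 6868568 on the plus strand. In the forebrain they act after Dlx1 and Dlx2, whose proteins are known to activate them. Dlx5 stood at 8.88, 8.89 and 8.90 with astrocytic and at 9.07, 9.13 and 9.03 with microglial apoE. It had the highest estimate among the members, 0.189 ± 0.032 (log2 fold change, SE), 1.14-fold (limma adjusted p = 6e-05), although its interval overlapped those of the other Dlx genes. Dlx6 stood at 7.58, 7.54 and 7.67 with astrocytic and at 7.69, 7.82 and 7.79 with microglial apoE. The nearest libraries of the groups differed by only 0.011, and the estimate was 0.165 ± 0.038 (SE), 1.12-fold (limma adjusted p = 0.0025).

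The transcription units of both clusters have antisense partners, and whether the counting used strand is not given in the sources used here. Dlx1as, on the minus strand, shares exon sequence with Dlx1, and Dlx6os2 shares it with Dlx6, so reads of these genes could have been assigned to either partner and Dlx1 and Dlx6 are uncertain to that extent. Dlx1as was low, at a mean of 6.21 ± 0.03 and 6.23 ± 0.02 (SD, n = 3) in the astrocytic and microglial groups, and did not pass (log2 fold change 0.025 ± 0.024 SE, limma adjusted p = 0.48). Dlx6os1, the noncoding RNA of the Dlx5 and Dlx6 region also known as Evf2, overlaps Dlx6 on the opposite strand without sharing exons. It stood at 10.28 ± 0.01 and 10.37 ± 0.06 (SD, n = 3) and rose by 0.090 ± 0.031 (SE, limma adjusted p = 0.032). That call was lost with median centring (adjusted p = 0.089) and without astrocytic replicate 1, astrocytic replicate 2, microglial replicate 1 or microglial replicate 3 (adjusted p = 0.06 to 0.21 in limma).

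The RefSeq start site windows (GRCm38.p6) used here cover 5 of the 9 members (Dlx1, Dlx2, Lhx6, Npas1 and Pvalb). The 250 bases before the start are shown for Dlx2 and Lhx6, which rose, for Pvalb, which fell, and for Dlx6os1, each 5′ to 3′ on the strand of the gene, with every match to the homeodomain core TAATT in capitals (either strand, overlapping matches allowed, so that TAATTA counts once on each strand). Lhx6 and Pvalb have more than 1 start, and 1 window of each is printed. The Dlx2 window (chr2:71546755-71547004, minus strand) lies outside annotated genes, that of Lhx6 (chr2:36104061-36104310, minus strand) lies in an intron of longer Lhx6 transcripts, that of Pvalb (chr15:78206401-78206650, minus strand) lies outside annotated genes and that of Dlx6os1 (chr6:6861684-6861933, minus strand) lies in an intron of that gene.
Dlx2: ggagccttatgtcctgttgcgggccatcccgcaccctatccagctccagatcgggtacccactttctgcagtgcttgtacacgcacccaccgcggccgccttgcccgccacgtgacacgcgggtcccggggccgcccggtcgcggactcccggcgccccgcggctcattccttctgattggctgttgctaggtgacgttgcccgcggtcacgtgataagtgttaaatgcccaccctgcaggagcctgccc
Lhx6: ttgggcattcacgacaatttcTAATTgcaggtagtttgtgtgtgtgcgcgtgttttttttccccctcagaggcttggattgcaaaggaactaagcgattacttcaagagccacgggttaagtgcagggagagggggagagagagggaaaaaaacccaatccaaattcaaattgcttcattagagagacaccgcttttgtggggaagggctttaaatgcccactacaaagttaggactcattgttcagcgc
Pvalb: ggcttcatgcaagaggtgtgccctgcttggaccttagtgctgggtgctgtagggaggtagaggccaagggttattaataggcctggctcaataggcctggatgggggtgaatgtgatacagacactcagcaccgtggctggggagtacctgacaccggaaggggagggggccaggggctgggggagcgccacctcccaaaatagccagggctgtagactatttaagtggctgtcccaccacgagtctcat
Dlx6os1: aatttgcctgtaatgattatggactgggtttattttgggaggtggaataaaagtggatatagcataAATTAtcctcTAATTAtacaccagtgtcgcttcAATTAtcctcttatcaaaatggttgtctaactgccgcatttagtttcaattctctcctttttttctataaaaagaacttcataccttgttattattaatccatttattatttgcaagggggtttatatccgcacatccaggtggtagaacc
The Dlx2 window is rich in CpG, with 24 CpG dinucleotides (88.0% of 32851 windows of this length had fewer) and a GC content of 66.4%. The Pvalb windows differ from each other. The upstream one, printed above, holds 4 CpG dinucleotides at a GC content of 58.4% (37.8% of windows had fewer), and the other, inside the gene, holds 23 at a GC content of 71.6% (86.7% had fewer), close to the Dlx2 window. None of these 3 windows holds TAATT, which 25.0% of all windows hold. The printed Lhx6 window has 1 match and 7 CpG dinucleotides (the other two have 17 and 14). The Dlx6os1 window has 4 matches at a GC content of only 34.0%. At least 4 matches occurred in 1.38% of all windows. The Lhx6 window was chosen after its match was seen, since it alone among 3 Lhx6 windows has one. The other Dlx6os1 window, in an exon of that gene, has 7 matches at a GC content of 33.2%, and 0.107% of all windows have at least 7. The other Lhx6 windows and those of Dlx1 and Npas1 have no match. A match is a description of the letters and shows no binding.

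Lhx6 (chromosome 2, 36081953 to 36105408, minus strand) moved with the Dlx genes. It stood at 10.76, 10.76 and 10.78 with astrocytic and at 10.95, 10.93 and 10.93 with microglial apoE. The SD within each group was 0.01, under the 0.0336 that counting alone would give if the linear value were a read count. The groups were 0.144 apart at their nearest libraries. Lhx6 rose by 0.168 ± 0.027 (log2 fold change, SE), 1.12-fold (limma adjusted p = 3.4e-05). Npas1 (chromosome 7, 16455721 to 16477728, minus strand) encodes a basic helix-loop-helix PAS factor found in interneurons and known mainly as a repressor. It stood at 7.18, 7.14 and 7.11 with astrocytic and at 7.19, 7.14 and 7.15 with microglial apoE. The groups overlapped throughout, and the estimate was 0.018 ± 0.029 (SE, limma adjusted p = 0.70), with a 95% interval of -0.041 to 0.076.

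The calcium-binding protein genes did not move as a group. Pvalb (chromosome 15, 78191114 to 78206400, minus strand), the gene of parvalbumin and the mark of fast-spiking basket cells, stood at 5.38, 5.38 and 5.35 with astrocytic and at 5.16, 5.15 and 5.20 with microglial apoE. Every microglial library was below every astrocytic one, by 0.147 at the nearest. Pvalb fell by 0.202 on the log2 scale (SE 0.020), 1.15-fold (limma adjusted p = 2.2e-08). It was the weakest of the 9 genes, and only 14.5% of the genes tested had a lower level, in the range where the scale compresses differences most. Of the 1028 genes tested within 0.5 of its level, 10 others had a fold change at least as large in either direction, and 17.7% were called. Its SDs of 0.02 and 0.03 were far under the 0.232 that counting alone would give if the linear value were a read count. Its SE and p, taken on the transformed scale, may thus be too small. The scale also shrinks the difference itself, and the effect on p was not tested. Counting alone would give 0.0317 for Dlx1, the most abundant member, to 0.121 for Npas1, and the SDs of every other member were below their own such value in both groups except that of Dlx2 with astrocytic apoE (0.07 against 0.054). The SEs and p of those members may be too small in the same way.

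Calb1 (chromosome 4, 15881264 to 15908064, plus strand), the gene of calbindin, stood at 9.63, 9.66 and 9.67 with astrocytic and at 9.70, 9.67 and 9.62 with microglial apoE. The highest and the lowest value were both in the microglial group. The estimate was 0.015 ± 0.030 (log2 fold change, SE, limma adjusted p = 0.77), with a 95% interval of -0.048 to 0.077. Calb2 (chromosome 8, 110137502 to 110168210, minus strand), the gene of calretinin, stood at 8.85, 8.80 and 8.85 with astrocytic and at 8.85, 8.90 and 8.84 with microglial apoE. The groups overlapped, and the estimate was 0.031 ± 0.031 (SE, limma adjusted p = 0.50, 95% interval -0.033 to 0.095). The upper ends of the intervals of Calb1, Calb2 and Npas1 (0.077, 0.095 and 0.076) lay below the lowest Dlx estimate (Dlx2, 0.151). These intervals rest on the spread of the transformed values. For Npas1 the SD was 0.03 in each group, against 0.121 from counting alone if the linear value were a read count. Its interval may thus be too narrow, and a rise of that size is not excluded.

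**Figure D2:**
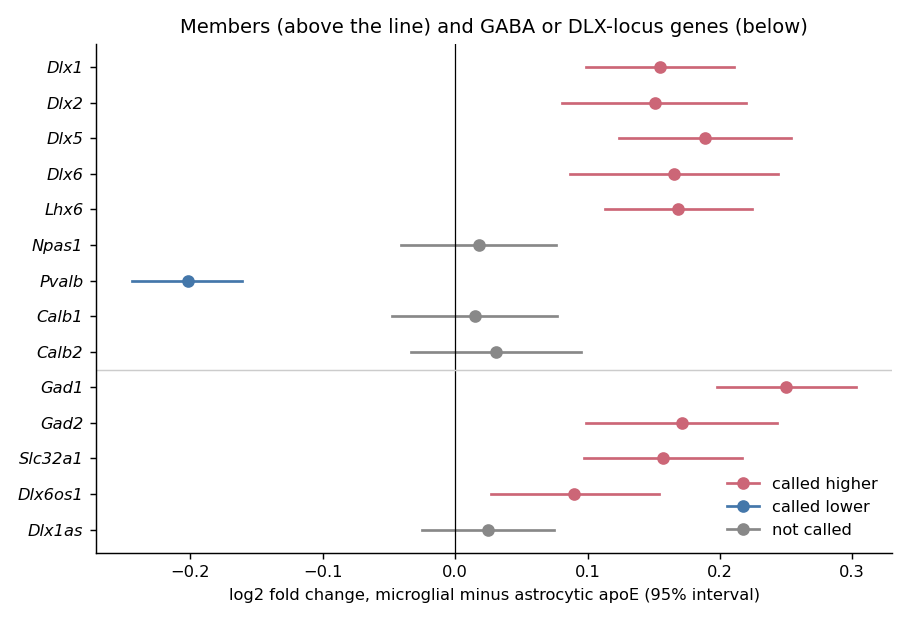
Log2 fold change (microglial minus astrocytic apoE) with its 95% interval from limma for the 9 members (above the grey line) and for 3 GABA genes and 2 noncoding RNAs of the Dlx loci (below). Red marks genes called higher, blue called lower and grey not called. The intervals of the Dlx genes and Lhx6 lie between 0.081 and 0.254, and that of Pvalb from -0.244 to -0.161.

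Differences between members were compared within each library, where the scaling of a library cancels. In 6 comparisons of related members an exact two-sided permutation test over samples could reach no p below 0.1. Dlx1 exceeded Dlx2 by 1.54 ± 0.09 in the astrocytic and 1.54 ± 0.02 in the microglial libraries (log2, SD, n = 3, exact permutation p = 1.0). The distance of Dlx5 from Dlx6 was 1.29 ± 0.06 and 1.31 ± 0.07, and that of Dlx1 from Dlx5 was 2.05 ± 0.02 and 2.02 ± 0.04, with overlapping groups in each case. Calb1 exceeded Calb2 by 0.82 ± 0.04 and 0.80 ± 0.04, also with overlap. Lhx6 exceeded Pvalb by 5.39 ± 0.03 and 5.77 ± 0.03, a change of 0.371, and Calb1 exceeded Pvalb by 4.28 ± 0.04 and 4.49 ± 0.07, a change of 0.217. In these last 2 the groups did not overlap, and each had the smallest p the design allows (exact permutation p = 0.1, 0.3 after Benjamini-Hochberg adjustment over the 6 pairs).

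The mean of the 4 Dlx genes was set against each remaining member in the same way, a comparison chosen after the values were seen. Against Lhx6 it changed by -0.003 between the groups, with overlap (exact permutation p = 1.0). Against Npas1, Calb1 and Calb2 it rose by 0.148, 0.150 and 0.134 and against Pvalb by 0.368, in log2, with no overlap of the groups in these 4 (exact permutation p = 0.1, 0.125 adjusted over 5). The ratio of the Dlx mean to each of these 4 members was thus higher in every microglial library than in any astrocytic one.

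Levels of different genes were compared as linear value per kilobase of annotated exon. With astrocytic apoE, Dlx1 (364 ± 5.79) and Lhx6 (363 ± 3.39, SD, n = 3) led and overlapped. Calb2 (262 ± 5.77), Dlx2 (238 ± 11.5), Dlx5 (210.0 ± 1.02), Calb1 (166 ± 2.33), Dlx6 (81.7 ± 3.89), Npas1 (46.9 ± 1.04) and Pvalb (39.8 ± 0.497) followed without overlap between neighbours. With microglial apoE the order was the same except that Lhx6 (408 ± 2.65) and Dlx1 (406 ± 4.07) changed places, again with overlap, and Dlx2 (264 ± 6.28) came within the range of Calb2 (267 ± 5.52). The exon lengths are those of GENCODE M21, which may not be the annotation used for counting.

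**Figure D3:**
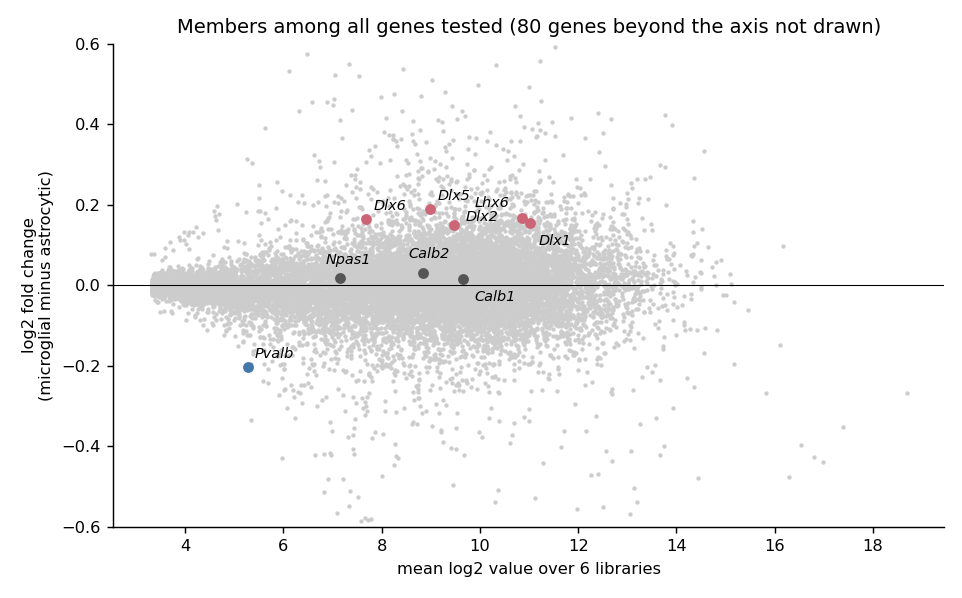
Log2 fold change (microglial minus astrocytic apoE) of all 15055 genes tested against their mean log2 value over the 6 libraries, with the 9 members named. Red members were called higher, blue lower and dark grey not called, and 80 genes beyond 0.6 in either direction are not drawn. The spread of all genes narrows towards low levels, where Pvalb lies at the lower edge.

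The genes that give interneurons their transmitter rose in the same libraries. Gad1 and Gad2, which make GABA, rose by 0.250 ± 0.025 and 0.171 ± 0.035 (log2 fold change, SE), and Slc32a1, which loads GABA into vesicles, rose by 0.157 ± 0.029 (limma adjusted p of 3.4e-08, 0.00084 and 0.00023). Relative to the mean of these 3 genes in the same library, Dlx1 stood at -0.54 ± 0.03 in the astrocytic and -0.58 ± 0.02 in the microglial libraries (log2, SD, n = 3). Dlx2, Dlx5, Dlx6 and Lhx6 changed on this measure by -0.042, -0.004, -0.028 and -0.025, and the groups overlapped for each of these 5 genes (exact permutation p = 0.2 to 0.9). Npas1 stood at -4.34 ± 0.02 and -4.51 ± 0.02, a difference of -0.175 in log2, and the differences were -0.178 for Calb1, -0.162 for Calb2 and -0.395 for Pvalb (-6.11 and -6.50). For these 4 every microglial library was below every astrocytic one (exact permutation p = 0.1, the smallest possible, 0.225 adjusted over the 9 members). With Gad1 alone as the reference the differences were larger, at -0.095 for Dlx1, -0.10 for Dlx2, -0.061 for Dlx5, -0.085 for Dlx6 and -0.082 for Lhx6. Against Gad1, Dlx1 and Lhx6 were then lower in every microglial than in every astrocytic library (-1.61 and -1.71 for Dlx1, -1.78 and -1.87 for Lhx6, exact permutation p = 0.1, the smallest possible, 0.15 adjusted over the 9 members), while Dlx2, Dlx5 and Dlx6 still overlapped. The reference genes themselves rose, so a member with no change of its own is lower on this measure.

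**Figure D4:**
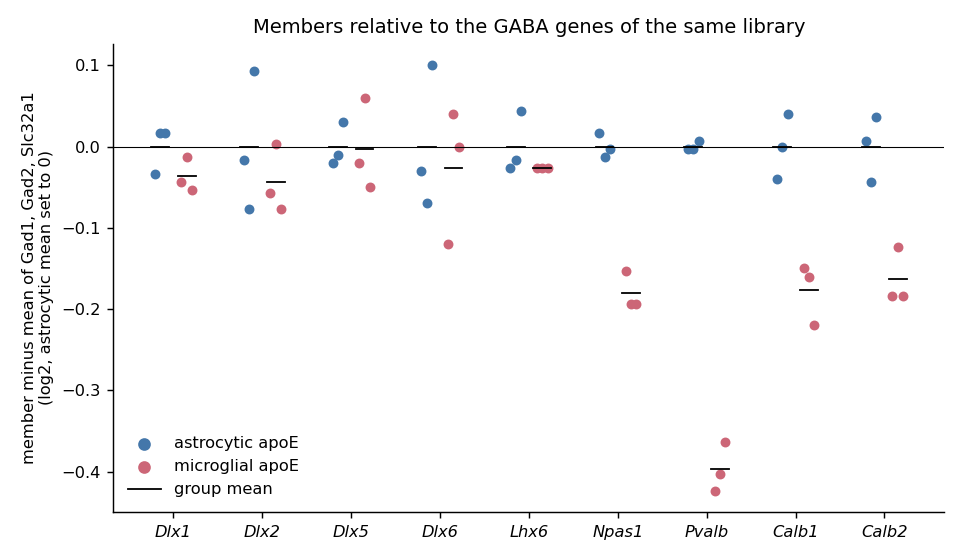
Each member's log2 value minus the mean log2 value of Gad1, Gad2 and Slc32a1 in the same library, with the mean of the 3 astrocytic libraries set to 0 for each gene. Points are libraries (blue astrocytic, red microglial apoE) and black bars are group means. With this mean as the reference the Dlx genes and Lhx6 overlap between groups, and the red points of Npas1, Pvalb, Calb1 and Calb2 lie below all blue ones.

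Other transcription factors and a noncoding RNA of interneuron specification were taken from a list of 24 genes, all of which were tested. Of these, 11 rose and 2 fell (median 0.069). The share called in either direction was 54.2%, against 24.9% of all genes tested. Nr2f2 (0.189 ± 0.029, log2 fold change, SE) and Sp8 (0.179 ± 0.030), factors of the caudal and dorsal lateral eminence, rose by amounts similar to those of the Dlx genes. Sp9 (0.182 ± 0.032), a partner of Sp8 in interneuron development, also rose (limma adjusted p of 2.4e-05 to 0.00012 for these 3). Nkx2-1, which specifies the medial eminence and activates Lhx6, rose by 0.147 ± 0.030, and Lhx8, a relative of Lhx6, by 0.126 ± 0.027. Nkx2-1 and Lhx8 were named after their values were seen. The LHX6-dependent factors Satb1 (0.051 ± 0.033, adjusted p = 0.28 in limma) and Sox6 (0.011 ± 0.034, adjusted p = 0.85 in limma), named in the same way, did not pass. Gsx1, which fell (-0.049 ± 0.015, adjusted p = 0.017 in limma), was named after its value was seen and sits near the bottom of the scale at 4.20 and 4.15. Without microglial replicate 2 or microglial replicate 3, 1 gene of the list fell instead of 2. Without 1 library at a time, 8 to 11 genes of the list rose.

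Genes of dividing cells were lower in the same libraries: 11 of 12 proliferation markers fell and 0 rose (median -0.546), with Top2a, the topoisomerase of dividing cells, at -0.835. The summed linear level of those 12 markers was 5330 to 5363 in the astrocytic and 4296 to 4336 in the microglial libraries, and none of them was at 0. Olig2, which is listed with the specification factors and also marks the oligodendrocyte lineage, rose by 0.154 ± 0.029 (SE, limma adjusted p = 0.00024), whereas Pdgfra (-0.379 ± 0.030) and Sox10 (-0.114 ± 0.018), both of oligodendrocyte precursors, fell. The remaining 5 of 8 oligodendrocyte markers did not pass. Their summed level was 5999 to 6296 with astrocytic and 6160 to 6332 with microglial apoE, and none was at 0. The share called was 91.7% of the proliferation and 37.5% of the oligodendrocyte markers, against 24.9% of all genes tested.

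Of 10 tested genes of interneuron migration and maturation (11 listed, Gucy1a1 not found by symbol), 1 rose and 2 fell (median 0.023). Nrp2, a semaphorin receptor of migrating interneurons that DLX proteins are known to repress, rose by 0.104 ± 0.028 (log2 fold change, SE, limma adjusted p = 0.0074). Without microglial replicate 1 that call was lost (adjusted p = 0.07 in limma). Without astrocytic replicate 2 and without microglial replicate 2, 2 and 3 genes of the list rose. Ackr3 (-0.124 ± 0.030), the scavenger receptor for the chemokine CXCL12, and Gucy1a3 (-0.147 ± 0.027), a guanylate cyclase subunit, fell. Erbb4, the neuregulin receptor of interneurons, did not pass (0.103 ± 0.046, adjusted p = 0.12 in limma, named after its value was seen).

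Markers of interneuron subclasses went both ways: of 18 tested (20 listed, Crh under the filter and Tac3 not found by symbol), 5 rose and 4 fell (median 0.011). Sst, which marks the other main class of the Lhx6 lineage, rose by 0.333 ± 0.031 (log2 fold change, SE), Cort, a somatostatin relative, by 0.112 ± 0.022 and Penk, the enkephalin precursor, by 0.225 ± 0.033. Cck (-0.430 ± 0.031) and Id2 (-0.133 ± 0.027) fell. Cck marks basket cells other than those of parvalbumin but is not restricted to interneurons. Id2, a mark of neurogliaform cells, is also found in astrocytes. The count of 4 that fell was 2 without astrocytic replicate 2 and without each of the 3 microglial replicates. Kcnc2, a potassium channel subunit of fast-spiking cells, rose by 0.115 ± 0.034 and Kcnc1, of the same channel family, stood at 0.041 ± 0.029 (limma adjusted p of 0.014 and 0.33), in the libraries in which Pvalb fell. Both were named after their values were seen.

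Calls among other neuronal EF-hand proteins were all in the lower direction: of 22 tested (23 listed, Ocm under the filter), 0 rose and 12 fell (median -0.085). The share called was 54.5%, against 24.9% of all genes tested in either direction. Kcnip3, a calcium sensor of potassium channels, fell by 0.364 on the log2 scale (SE 0.029), Necab1 by 0.236 (SE 0.032) and Caln1, the gene of calneuron, by 0.210 (SE 0.029). The calmodulin gene Calm2 fell by 0.151 (SE 0.026) and hippocalcin (Hpca), of pyramidal neurons, by 0.142 (SE 0.029), with limma adjusted p of 4.4e-10 to 0.00064 for these 5. S100b (-0.173 ± 0.023), mostly of glia, is in this list and among the astrocyte markers. Scgn, the gene of secretagogin and closest in family to calbindin and calretinin, was near the bottom of the scale (3.56 and 3.57) and did not pass (0.010 ± 0.012, adjusted p = 0.59 in limma, named after its value was seen). At an unadjusted p under 0.05 in limma still 0 of this list were higher and 13 lower. Without astrocytic replicate 3, 1 gene of this list rose.

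**Figure D5:**
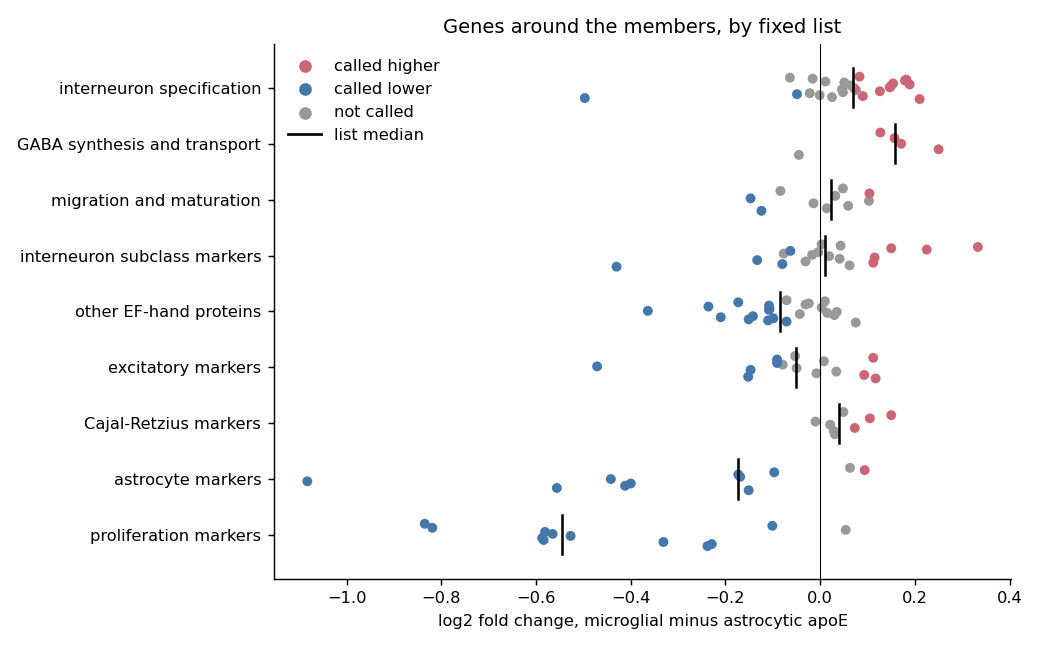
Log2 fold change (microglial minus astrocytic apoE) of the tested genes of 9 fixed lists, 1 point per gene, red where called higher, blue where called lower and grey where not called, with the list median as a black bar. Specification and GABA genes lie mostly to the right of 0, and EF-hand, astrocyte and proliferation genes mostly to the left.

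Markers of the other cells that can hold calbindin or calretinin were set beside Calb1 and Calb2. Of 6 tested dentate granule cell markers (8 listed, Tdo2 and Lct under the filter), 2 fell and 0 rose, and 1 fell without astrocytic replicate 2 or 3 and without microglial replicate 1 or 2. Those that fell were C1ql3 (-0.148 ± 0.030) and Pdzd2 (-0.117 ± 0.041, log2 fold change, SE), and the granule cell factor Prox1 stood at 0.023 ± 0.034 (adjusted p = 0.67 in limma, named after its value was seen). Their summed linear level was 1752 to 1811 in the astrocytic and 1626 to 1738 in the microglial libraries. Of 8 Cajal-Retzius markers, of which Calb2 is one, 3 rose and 0 fell: Reln (0.150 ± 0.034), Nhlh2 (0.105 ± 0.027) and Ebf3 (0.073 ± 0.022). Their summed level was 5648 to 5884 and 5963 to 6499, most of it from Reln, which interneurons also make. Excitatory neuron markers split, with 3 of 14 higher and 5 lower (median -0.051, summed level 24226 to 24568 with astrocytic and 22471 to 22696 with microglial apoE), led by Neurod6 (-0.471 ± 0.031). Without microglial replicate 3, 1 rose and 3 fell, and without astrocytic replicate 1, 1 rose. Of the granule cell, Cajal-Retzius and excitatory markers, 33.3%, 37.5% and 57.1% were called, against 24.9% of all genes tested. No marker of these 3 lists was at 0, and their part in the values of Calb1 and Calb2 was not tested.

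Astrocyte markers differed between the groups too. Of 11 tested astrocyte markers (12 listed, Gjb6 under the filter), 9 fell and 1 rose (median -0.173), and their summed linear level was 79728 to 80941 in the astrocytic and 67747 to 68292 in the microglial libraries. Without astrocytic replicate 3, 2 of them rose. Microglia markers had a summed level of 563 to 582 in the astrocytic and 595 to 596 in the microglial libraries. Of 8 tested (10 listed, P2ry12 and Tmem119 under the filter), 1 rose (12.5%, against 13.0% of all genes tested) and 0 fell. That gene, C1qc (0.059 ± 0.021, adjusted p = 0.039 in limma), was not called without astrocytic replicate 1 or 2 or without microglial replicate 1 or 3. None of these markers was at 0. Among the 8 general neuronal markers, 4 fell and 0 rose (median -0.052), with a summed level of 65923 to 66659 and 62751 to 63340. Without astrocytic replicate 2, 2 of them fell. At an unadjusted p under 0.05 in limma, 0 general neuronal, 0 proliferation and 0 granule cell markers were higher, and 0 microglia and 0 Cajal-Retzius markers were lower. The part of these changes in cell markers in the values of the 9 members was not tested.

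The genes whose 6 library values, each centred on its own mean, came nearest to those of the members were found by root mean square distance among the 15046 other genes tested. Nearest to the mean of the 4 Dlx genes were Gnb2l1, a ribosome-associated scaffold gene (0.00389 in log2), the ribosomal protein gene Rpl3 (0.00654) and the netrin receptor gene Unc5b (0.00994), against a spread of 0.0871 for the Dlx mean itself. Nearest to Lhx6 were Tmem184b (0.00957), Cnppd1 (0.00964) and H2-Q7 (0.00985), and nearest to Pvalb were 2610301B20Rik (0.012), Myef2 (0.0134) and the mitotic kinase gene Aurka (0.0145). H2-Q7 belongs to a family of near-identical genes and is uncertain. For Npas1 (spread 0.026), Calb1 (0.0278) and Calb2 (0.0297) the nearest were Gm8783 (0.00534), Tmem181b-ps (0.006) and Gal3st3 (0.00599). These distances are over 6 libraries in 2 groups, so they mostly reflect the difference between the groups.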

How the data were processed

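RNA of 6 samples, 3 per group by the treatment in the labels, was sequenced on a BGI platform. Per the submitters' processing notes, FastQC, HISAT2, featureCounts and DESeq2 were used with build GRCm38; no version, role, annotation or strand setting is stated there. The authors deposited log2 values for 47593 gene symbols in each sample, of which 21031 were at 0 in all 6 libraries and none in only some. The transformation is inferred from the values as a regularized logarithm.

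The log2 values were tested as deposited with limma 3.58.1 in R 4.3.3 (trend and robust options, 2 groups, no covariate). The filter kept genes at the log2 of 10 or more in at least 3 libraries. SEs are limma's moderated SEs and intervals are 95% intervals from them. The fit was tested on simulated data with normal noise at the within-group SDs of the deposited values. That test cannot show whether SEs and p hold on the shrunken scale. Tables and figures used Python 3.11.15 with numpy 2.4.6, pandas 2.3.3, scipy 1.17.1 and matplotlib 3.10.9. Depth is unknown, so no counting interval is given.

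The members and gene lists were chosen with earlier results of these data known. Named were all members, Dlx6os1, Dlx1as, Gad1, Gad2 and Slc32a1, up to 6 called genes with the smallest p per list, and the 3 genes nearest to each profile; others are marked. A few genes meeting this rule are left unreported. The alternatives were 2 other filters, 2 scalings, a pseudocount of 1, limma without trend and robust options, the replicate number as a block, Gad1 alone as the reference, and each sample left out. No label states whether same-numbered samples share more than the number.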

Additional observations from a re-analysis of the deposited data

How the results depend on the processing

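Dlx1, Dlx2, Dlx5, Dlx6 and Lhx6 stayed called higher in limma under all 13 alternatives, with log2 fold changes of 0.117 to 0.212 and adjusted p of 1.3e-06 to 0.031, and Pvalb stayed called lower under the 12 that tested it (-0.221 to -0.189, adjusted p up to 0.0002). At the filter of 50 Pvalb was not tested, so 0 members were called lower there. Npas1, Calb1 and Calb2 were called under none (adjusted p of 0.32 to 0.99). Their estimates are near 0 and some changed sign: Npas1 was -0.001 with median centring, and Calb1 was -0.004 with median centring and -0.005 to 0.037 without 1 library. The median of the members was 0.117 to 0.154 without 1 library. Without 1 library, the change relative to the GABA genes ranged from -0.080 to 0.005 for Dlx2, -0.036 to 0.019 for Dlx5 and -0.061 to 0.021 for Dlx6. With Gad1 alone as the reference all 9 changes were negative (-0.453 to -0.061), and Dlx1 and Lhx6 no longer overlapped between groups. The change in a distance ranged from -0.035 to 0.051 for Dlx1 and Dlx2, -0.011 to 0.059 for Dlx5 and Dlx6, and -0.041 to 0.006 for Calb1 and Calb2. These signs belong to differences within the spread of the libraries. In the 5 lists around the members, 21 genes rose and 20 fell, and 17 to 22 rose and 14 to 20 fell without 1 library (chosen after seeing the data). Small list counts also moved with the settings: in the subclass list 2 genes fell with no filter, with equal sums or with the replicate block, in the specification list 1 fell at the filter of 50, with equal sums or without limma's trend and robust options, and 0 microglia markers rose under these last options, under either other filter or with median centring, against 4 with equal sums. With each library centred on its median, 34.8% of all calls were higher, against 52.4% as deposited and 65.6% with equal sums, and the median of all genes moved by -0.018 and 0.014.

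Same-numbered libraries did not deviate together (correlations of 0.039, -0.122 and -0.186). With the replicate block, 5 members were called higher and 1 lower, with a median of 0.151, and no call of a member changed. The block left 3387 of 3742 calls among all genes. The unknown depth and the shrinkage of the deposited scale limit what can be said of Pvalb, Scgn and Gsx1, which lie low on it.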
